A study of Homo sapiens with 6 samples.

Results

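The 10 genes SNAI1, SNAI2, SNAI3, ZEB1, ZEB2, FOXC1, FOXQ1, SOX4, SOX9 and PRRX1 encode transcription factors of the epithelial-mesenchymal transition (EMT). They were taken by gene name from a count table of 58733 genes, and all 10 names were found once. RNA had been sequenced from MDA-MB-231, an established human line of triple-negative breast carcinoma whose cells look mesenchymal. Cells were treated with 2 µM Azeliragon, a small-molecule inhibitor of the receptor RAGE, or with its vehicle DMSO, both for 72 h. There were 3 libraries per condition, here called a, b and c as in the labels. Apart from the drug, the labels give the conditions the same culture medium with serum and no other agent. Whether the 3 libraries are independent cultures is not stated in the labels. All p-values below therefore weigh the difference between conditions only against the spread of these libraries, and that spread may be technical.

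EMT transcription factors switch epithelial cells towards a motile, mesenchymal state. SNAIL (SNAI1), SLUG (SNAI2) and the ZEB proteins are zinc finger repressors that bind E-box sequences in promoters of junction genes such as CDH1, the epithelial cadherin. The forkhead factors FOXC1 and FOXQ1, the SOX factors SOX4 and SOX9 and the homeobox factor PRRX1 act beside them, and carcinoma lines differ in which of these factors they use. The title of the series links SNAIL to RAGE. The comparison therefore asks how RNA of SNAIL and its neighbours in this network differed between Azeliragon and DMSO. Whether RAGE was inhibited in these cells was not tested.

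Library totals lay between 41455979 and 44313584 counts, so that 3 reads correspond to 0.0677 to 0.0724 CPM (counts scaled to a common library size). On the first principal component, with 37.6% of the variance, the Azeliragon libraries lay between -23.0 and -19.0, DMSO a at -0.23, and DMSO b and c at 30.1 and 33.7, so DMSO a stood apart from its group. Calls that change without DMSO a are given beside the 10 factors and the tested genes named from the lists after them. For the cell-type markers named in this paragraph, SNAI3-AS1 and the genes most like SNAI1, calls without DMSO a were not examined. The 7 markers listed for the line, among them VIM, AXL and CD44, were all expressed, while PGR, PDGFRA, FAP and CD3E had 0 reads. Other members of the same lists were expressed. These were luminal KRT19, GATA3 and EPCAM (means of 181, 27.6 and 8.97 CPM in DMSO) and leukocyte CD14 (1.36 CPM). Fibroblast PDGFRB, COL1A1 and COL1A2 had means of 9.85, 8.13 and 2.31 CPM in DMSO. Summed levels of marker lists of other cell types differed between the conditions, without overlap for 3 of 4 lists. Summed levels of the 7 markers of the line itself did not overlap either. They were 7354.85 to 7469.26 CPM with Azeliragon and 7659.74 to 7794.5 CPM in DMSO, so the shift was not limited to markers of other cell types. Taken singly, 25.3% of all tested genes did not overlap. The 7 fibroblast markers summed to 11.3 to 13.3 CPM with Azeliragon and 19.6 to 22.3 CPM in DMSO. Of the 4 tested, 3 were lower and none higher past the threshold used below (edgeR adjusted p under 0.05). Among all tested genes 3.53% were lower and 2.75% higher by this threshold. The 4 endothelial markers summed to 5.96 to 6.29 CPM with Azeliragon and 3.08 to 4.50 CPM in DMSO, and 1 of them, KDR, rose. The 5 leukocyte markers summed to 0.868 to 1.08 CPM with Azeliragon and 1.24 to 1.60 CPM in DMSO, and none passed. The 8 luminal markers summed to 188 to 201 CPM with Azeliragon and 193 to 232 CPM in DMSO, with 1 member lower. Of the 7 markers of the line, 5 did not overlap, and 1 was higher and 1 lower by the same threshold. The part of these lists in the results below was not tested, and in bulk RNA fewer cells with a transcript and less RNA per cell cannot be told apart.

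Which factors were expressed at all was read from the mean level in each condition. Levels are CPM scaled by TMM, edgeR's correction for library composition, and a gene counted as expressed at 1 CPM or more in either condition. By this measure 9 of the 10 factors were expressed, and PRRX1 was not. SNAI1 reached 1 CPM in DMSO alone (0.429 CPM with Azeliragon, 1.88 CPM in DMSO) and SNAI3 with Azeliragon alone (1.06 CPM with Azeliragon, 0.931 CPM in DMSO). All but PRRX1 had at least 3 reads in every library. Raising the bar to 5 CPM left 7 factors, which excluded SNAI1, SNAI3 and PRRX1.

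Scaled for gene length as TPM (counts divided by exon length and by the library's total of such values), the factors spanned a wide range of levels. With Azeliragon SOX9 was the highest at 142 ± 6.0 TPM, above 93.2% of the tested genes, and SNAI2 came next at 16.4 ± 0.96 TPM. FOXC1 (13.3 ± 0.52 TPM), FOXQ1 (8.45 ± 1.2 TPM) and ZEB1 (5.88 ± 0.79 TPM) followed. Below them were SOX4 at 2.84 ± 0.41 TPM, SNAI3 at 1.97 ± 0.52 TPM, ZEB2 at 0.904 ± 0.13 TPM, SNAI1 at 0.819 ± 0.37 TPM and PRRX1 at 0.194 ± 0.069 TPM (all SD, n = 3). In this order SOX4 and SNAI3 overlapped, as did ZEB2 and SNAI1, and no other neighbours did.

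In DMSO SOX9 also led, at 121 ± 21 TPM (above 92.0% of the tested genes), before SNAI2 at 18.9 ± 3.3 TPM and FOXQ1 at 12.5 ± 0.78 TPM. FOXC1 (8.40 ± 1.9 TPM), SOX4 (6.58 ± 1.6 TPM) and ZEB1 (5.64 ± 1.5 TPM) overlapped in their libraries. SNAI1 stood at 3.46 ± 0.35 TPM, above SNAI3 at 1.67 ± 0.31 TPM, ZEB2 at 0.733 ± 0.10 TPM and PRRX1 at 0.115 ± 0.14 TPM (all SD, n = 3). FOXC1 and FOXQ1 thus had opposite places in the conditions, and SNAI1 stood below SNAI3 with Azeliragon and above it in DMSO. The exon length of ZEB2 over all its isoforms is 25058 bases, while its longest transcript has 9583 bases. By the longest transcript ZEB2 stood at 1.76 ± 0.25 TPM with Azeliragon and 1.42 ± 0.20 TPM in DMSO, so its place near the bottom depends on the length used.

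**Figure D1:**
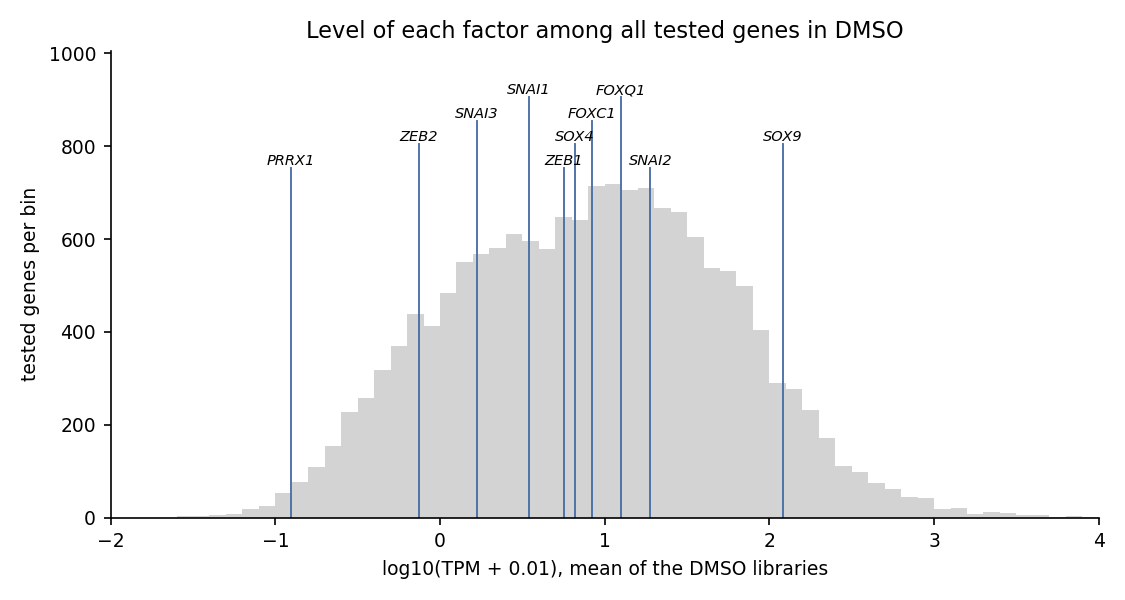
Histogram of the mean level in the DMSO libraries, as log10(TPM + 0.01), over tested genes, with a vertical line at each of the 10 factors. SOX9 lies in the upper tail, PRRX1 in the lower tail, and the other 8 within the bulk of expressed genes.

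The conditions were compared with edgeR's quasi-likelihood test, with Benjamini-Hochberg adjustment over the 16081 genes that passed a filter on low counts. A gene was called where its adjusted p was under 0.05. All 10 factors passed the filter. SNAI1, SOX4 and FOXQ1 fell with Azeliragon, FOXC1 rose, and 6 factors did not pass. Over all tested genes 6.27% were called, 3.53% lower and 2.75% higher. The median log2 fold change of the 10 factors was 0.10, and that of all tested genes -0.004. Values of the conditions did not overlap for 5 of the 10 factors, against 25.3% of all tested genes. The same 4 factors, in the same directions, were called by DESeq2 and by limma-voom. Without DMSO a 6 factors passed (3 higher and 3 lower), in a fit that called 23.7% of all tested genes. Without DMSO b 2 passed, SNAI1 and SOX4, where 2.86% of all tested genes were called. Without Azeliragon a or Azeliragon c 3 factors passed (2.68% and 2.70% of all tested genes), and without Azeliragon b or DMSO c 4 did (3.01% and 4.94%).

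**Figure D2:**
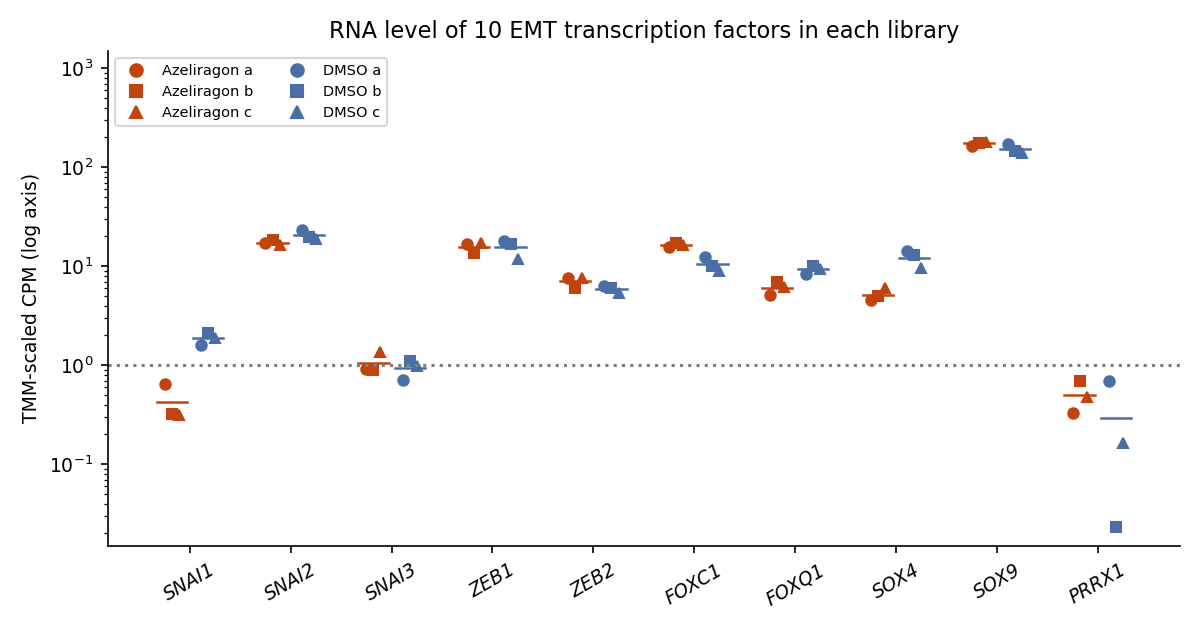
TMM-scaled CPM on a log axis for the 10 factors, Azeliragon libraries in orange left of DMSO libraries in blue, with marker shapes for replicate letters and short lines at the means. The dotted line marks 1 CPM. SNAI1 and SOX4 are separated downward with Azeliragon and FOXC1 upward, while PRRX1 in DMSO spreads from 1 to 31 reads.

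SNAI1, the gene for SNAIL, fell further than any other of the 10 factors. It lies on chromosome 20 at chr20:49982999-49988886 on the plus strand (GRCh38, GENCODE 29). It had 28, 14 and 13 reads in Azeliragon a, b and c, against 73, 91 and 82 reads in DMSO a, b and c. The highest Azeliragon library, with an exact 95% Poisson interval of 18.6 to 40.5 reads, lay below the lowest DMSO library, with an interval of 57.2 to 91.8 reads, and these intervals cover counting error only. The level was 0.429 ± 0.19 CPM with Azeliragon and 1.88 ± 0.25 CPM in DMSO (SD, n = 3 each). The log2 fold change was -2.12 (SE 0.33, 95% interval -2.84 to -1.40; edgeR adjusted p = 0.00236). It was called under all 16 other settings tried, glmTreat against a 1.5-fold change included. The level with Azeliragon is below the 1 CPM used to call a gene expressed. SNAI1P1, a processed pseudogene that could have taken SNAI1 reads, had 0 reads in all libraries. How multi-mapping reads were treated is not given, so this does not show that no SNAI1 reads were lost. RNF114, the neighbouring gene, had a log2 fold change of -0.02 (edgeR adjusted p = 0.913).

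SNAI2, which encodes SLUG, was the dominant member of the SNAI family in every library. It had 737, 808 and 674 reads with Azeliragon, against 1038, 842 and 811 reads in DMSO. The conditions did not overlap, but the log2 fold change of -0.24 (95% interval -0.46 to -0.02) did not pass the threshold (edgeR adjusted p = 0.202). Without DMSO a, the library with the most SNAI2 reads, it was -0.15 (edgeR adjusted p = 0.286). SNAI3, the least studied member of the family, had 39, 39 and 57 reads with Azeliragon and 32, 48 and 42 reads in DMSO. These values overlapped, and the 95% interval of the log2 fold change, -0.49 to 0.86, leaves a wide range. An antisense gene, SNAI3-AS1, shares 163 of the 1732 exon bases of SNAI3 and had more reads than SNAI3 in all 6 libraries, so the SNAI3 counts are uncertain. SNAI3-AS1 itself had a log2 fold change of 0.52 (unadjusted p = 0.0330; edgeR adjusted p = 0.197).

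Taken per length, the make-up of the SNAI family differed between conditions. SNAI1 held 6.48%, 3.09% and 3.22% of the family's TPM in Azeliragon a, b and c, against 11.8%, 16.4% and 15.6% in DMSO a, b and c. The values did not overlap, and the mean share was 4.26 ± 1.9% with Azeliragon and 14.6 ± 2.5% in DMSO (SD, n = 3 each). SNAI2 held 85.4 ± 2.8% of family TPM with Azeliragon and 78.4 ± 4.3% in DMSO. These SNAI2 shares overlapped, with 83.2% in DMSO a and 83.0% in Azeliragon c. All shares include the uncertain SNAI3 counts. The family as a whole summed to 19.2 ± 0.50 TPM with Azeliragon and 24.0 ± 2.9 TPM in DMSO. Most of the SNAI family RNA in these cells was SNAI2 RNA in either condition.

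**Figure D3:**
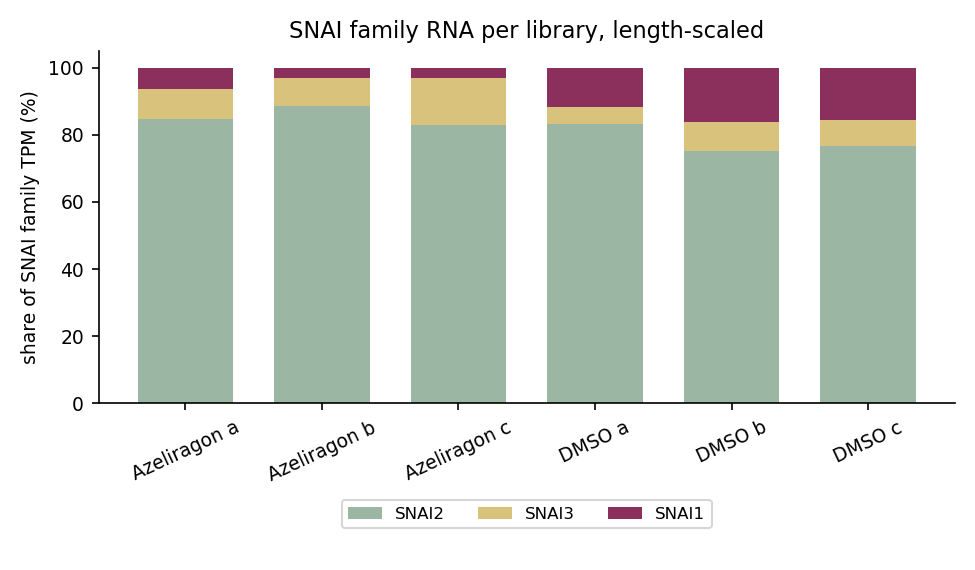
Stacked bars of the share of summed SNAI1, SNAI2 and SNAI3 TPM (percent) in each library, Azeliragon libraries left of DMSO libraries. SNAI1 takes 3.09% to 6.48% with Azeliragon and 11.8% to 16.4% in DMSO, and SNAI2 takes the largest share in all 6 libraries.

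The ZEB genes, whose products repress CDH1 and the miR-200 genes, showed no called difference. ZEB1 had 714, 589 and 716 reads with Azeliragon and 814, 718 and 512 reads in DMSO, so the ranges overlapped. Its log2 fold change was 0.03 with a 95% interval of -0.30 to 0.35 (edgeR adjusted p = 0.949). ZEB2 had 328, 260 and 312 reads with Azeliragon and 282, 259 and 231 reads in DMSO, with a log2 fold change of 0.26 (95% interval -0.03 to 0.55; edgeR adjusted p = 0.305). ZEB1 averaged 15.8 ± 2.0 CPM with Azeliragon and 15.5 ± 3.2 CPM in DMSO. ZEB1-AS1, an antisense gene that shares 366 of the 8650 exon bases of ZEB1, had a log2 fold change of -0.03 (edgeR adjusted p = 0.955), and ZEB2-AS1 had 0 reads.

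Of the forkhead genes, FOXC1 rose and FOXQ1 fell. Both lie on chromosome 6, FOXQ1 at chr6:1312440-1314748 and FOXC1 at chr6:1609972-1613897. They are on the plus strand and 295 kb apart, and are not adjacent, as FOXCUT lies between them. FOXC1, a factor known from basal-like breast cancer, had 665, 740 and 675 reads with Azeliragon and 559, 438 and 386 reads in DMSO. All Azeliragon values lay above all DMSO values, at 16.2 ± 0.75 CPM with Azeliragon and 10.5 ± 1.7 CPM in DMSO (SD, n = 3 each; log2 fold change 0.63, SE 0.12; edgeR adjusted p = 0.00772). FOXQ1, known as a driver of EMT in breast and colorectal cancer cells, had 220, 304 and 254 reads with Azeliragon and 381, 434 and 405 reads in DMSO. All its Azeliragon values lay below all DMSO values, at 6.07 ± 0.93 CPM with Azeliragon and 9.29 ± 0.81 CPM in DMSO (SD, n = 3 each; log2 fold change -0.61, SE 0.13; edgeR adjusted p = 0.0173). The ratio of FOXC1 to FOXQ1 per length was 1.78, 1.43 and 1.56 in Azeliragon a, b and c, and 0.863, 0.594 and 0.561 in DMSO a, b and c. FOXC1 was thus the higher of the pair in every Azeliragon library and FOXQ1 in every DMSO library. The call of FOXC1 was lost without DMSO b (edgeR adjusted p = 0.0522), and that of FOXQ1 without Azeliragon a (0.104), without Azeliragon c (0.0730) and without DMSO b (0.0965). Neither passed a test against a 1.5-fold change. FOXCUT, a noncoding gene named for its place near FOXC1, had 15 reads in DMSO a and 0 to 4 in the other libraries, and was not tested.

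Of the SOX genes, SOX4 fell and the more abundant SOX9 did not pass. SOX4, a factor induced by TGF-beta in EMT, lies at chr6:21592768-21598619. It had 195, 218 and 248 reads with Azeliragon, against 639, 559 and 415 reads in DMSO, and the ranges were far apart. The level was 5.17 ± 0.74 CPM with Azeliragon and 12.2 ± 2.3 CPM in DMSO (SD, n = 3 each; log2 fold change -1.24, SE 0.16; edgeR adjusted p = 0.000587). SOX4 was called under all 16 other settings. An antisense gene, AL512380.2, overlaps 168 of its 5852 exon bases but had 0 reads in all 6 libraries. SOX9, a factor of stem-like and basal breast cells, had 7085, 7712 and 7428 reads with Azeliragon and 7690, 6245 and 6046 reads in DMSO. Only DMSO a lay within the Azeliragon range. Its log2 fold change was 0.19 with a 95% interval of 0.02 to 0.37 (edgeR adjusted p = 0.189), and without DMSO a it was 0.29 and passed (edgeR adjusted p = 0.000256). SOX9 was called under 2 of the 16 other settings, both without DMSO a. SOX9 RNA exceeded SOX4 RNA per length 50.4 ± 5.1 times with Azeliragon and 18.7 ± 2.6 times in DMSO (SD, n = 3 each). It also made up most of the summed TPM of the 10 factors, 73.6 ± 0.36% with Azeliragon and 67.5 ± 1.4% in DMSO.

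PRRX1, a homeobox factor of mesenchymal cells, was near the limit of detection. It had 14, 30 and 20 reads in Azeliragon a, b and c, against 31, 1 and 7 reads in DMSO a, b and c. The DMSO libraries thus held both the highest and the lowest count, and the spread relative to counting noise (chi-square per degree of freedom) was 2.86 with Azeliragon and 18.3 in DMSO. The log2 fold change was 0.76 with a 95% interval of -0.83 to 2.35 (edgeR adjusted p = 0.608). Without DMSO a it was 2.39 and passed (edgeR adjusted p = 0.0197), so that 1 library decides it. In the other 5 fits with 1 library left out the adjusted p lay between 0.638 and 0.915.

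**Figure D4:**
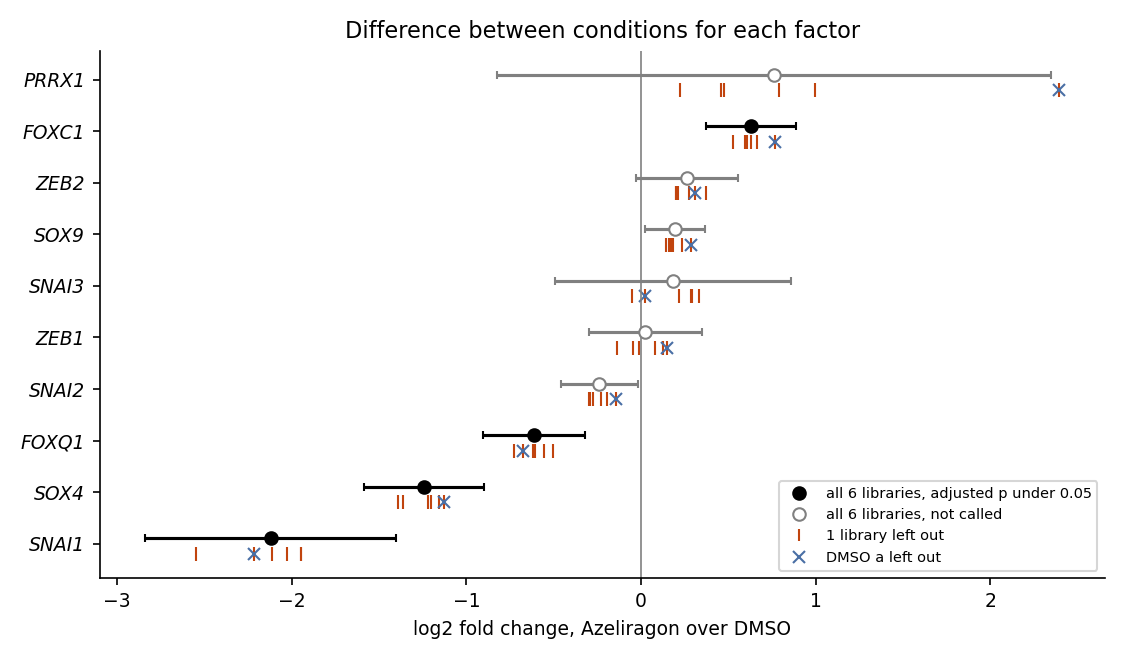
Log2 fold change of each factor, Azeliragon over DMSO, with its 95% interval from the edgeR fit (filled where adjusted p was under 0.05). Ticks give the 6 fits with 1 library left out and crosses the fit without DMSO a. SNAI1, SOX4 and FOXQ1 stay below 0 and FOXC1 above 0 in all of these fits, while ZEB1 and SNAI3 have fits on either side of 0.

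MicroRNAs that target these factors were not measured, but the RNA of 3 host genes was, those of miR-34a, miR-200c and miR-205. Any other host gene of the miR-200 family was not examined. The miR-200 family and miR-205 are known to target ZEB RNAs, and miR-34a to target SNAI1 RNA. MiR-200 with ZEB and miR-34a with SNAI1 form mutual repression loops in carcinoma cells. MIR34AHG, on chromosome 1 at chr1:9148011-9198906, fell with Azeliragon. It had 50, 29 and 36 reads with Azeliragon and 74, 101 and 83 reads in DMSO, without overlap (log2 fold change -1.13, SE 0.27; edgeR adjusted p = 0.0305). The call was lost without Azeliragon b, Azeliragon c, DMSO b or DMSO c (edgeR adjusted p 0.132, 0.119, 0.145 and 0.0536), and a gene on the opposite strand shares 431 of its 8702 exon bases. MIR200CHG and MIR205HG had 0 reads in all 6 libraries, which allows up to 0.0724 CPM in the shallowest library. The mature sequences, from RefSeq on GRCh38.p14, are shown because their seeds define the sites counted next, with the seed (bases 2 to 8) in capitals.
hsa-miR-34a-5p: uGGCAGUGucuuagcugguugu
hsa-miR-200c-3p: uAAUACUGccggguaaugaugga
hsa-miR-205-5p: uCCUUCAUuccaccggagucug

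Matches to the 7 bases that pair with each seed were counted in the 3' UTR of the longest coding transcript of each factor (GENCODE 29). The miR-200c seed had 6 matches in ZEB1 and 5 in ZEB2, 1 in SNAI2 and none in the other 7 factors. Of 3' UTRs of like length (0.8 to 1.25 times), 27.5% held at least 1 match for the length of ZEB1 and 46.5% for that of ZEB2. The miR-34a seed had 1 match each in SNAI1, SNAI3, ZEB1, FOXQ1, SOX4 and SOX9. Of these 6 factors 3 fell, SNAI1, SOX4 and FOXQ1, while SNAI3, ZEB1 and SOX9 were not called. Among all tested genes 3.53% fell. The share of 3' UTRs of like length with a match was 10.9% for SNAI1, 10.1% for SNAI3 and 11% for FOXQ1. It was 23% for ZEB1, 23.4% for SOX4 and 21.1% for SOX9. Whether these matches bear on the RNA levels was not tested. The miR-205 seed had 1 match, in ZEB1. A match is a description of letters and not a measured site. The sites of the 3 factors that fell and the first 2 sites each of ZEB1 and ZEB2 are shown as RNA-sense DNA with the seed match in capitals, to set the single miR-34a matches beside the repeated miR-200 matches.
SNAI1, miR-34a match, chr20:49988132-49988158, plus strand: acatccttctCACTGCCatggaattcc
SOX4, miR-34a match, chr6:21598524-21598550, plus strand: atgtcaagttCACTGCCtgtcagattg
FOXQ1, miR-34a match, chr6:1314611-1314637, plus strand: gtgccaggacCACTGCCttgaaagcaa
ZEB1, miR-200c match, chr10:31527623-31527649, plus strand: tttatcttatCAGTATTatcactctta
ZEB1, miR-200c match, chr10:31527717-31527743, plus strand: aaatccgcttCAGTATTttattatgtt
ZEB2, miR-200c match, chr2:144389043-144389069, minus strand: taccatacatCAGTATTtttattatta
ZEB2, miR-200c match, chr2:144388980-144389006, minus strand: tacaatgcatCAGTATTatgattcctc

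Promoter windows of 250 bases before a RefSeq start were found for 6 of the 10 factors, FOXC1, FOXQ1, SOX4, ZEB1, ZEB2 and PRRX1. The E-box CAGGTG, read on both strands (reverse complement CACCTG), which SNAIL and ZEB proteins are known to bind, occurred in 2 of the 7 windows of ZEB1 and in no window of the other 5 genes. Of 35116 promoter windows of this length, 17.5% held it.

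Other EMT-promoting factors were mostly silent or not called. Of 15 genes, 7 were expressed and tested, 1 rose and none fell, where 6.27% of all tested genes were called. TWIST1, TWIST2, TCF4, GSC and TBXT had 0 reads in all 6 libraries. ETS1, which activates matrix protease genes, rose to 267 ± 12 CPM with Azeliragon, against 199 ± 22 CPM in DMSO (SD, n = 3 each; log2 fold change 0.42; edgeR adjusted p = 0.00763). That call was lost without DMSO b or Azeliragon a (edgeR adjusted p 0.0649 and 0.0602). FOSL1, an AP-1 subunit with the highest mean CPM of the 15, had a log2 fold change of 0.10 (edgeR adjusted p = 0.351). The list median was 0.09, and 3 of the genes passed without DMSO a, where 23.7% of all tested genes did.

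Of 14 regulators of the epithelial state, 4 were expressed and 8 tested, with 1 lower and none higher. In that fit 6.27% of all tested genes were called. Without DMSO a the only call in this list was 1 higher gene, in a fit that called 23.7% of all tested genes. The gene that fell, ELF3, an epithelial ETS factor, had 2, 2 and 4 reads with Azeliragon and 41, 11 and 13 reads in DMSO, so that it was under 1 CPM in all 6 libraries. Its fitted log2 fold change was -2.91 (SE 0.70; edgeR adjusted p = 0.0284), and without DMSO a it was -2.10 and not called (edgeR adjusted p = 0.0540). The ELF3 call was also lost without any single Azeliragon library (edgeR adjusted p 0.0817 to 0.152), and by limma-voom (adjusted p = 0.0525), while DESeq2 gave it no adjusted p. An annotated antisense gene overlaps ELF3. OVOL2 and ELF5 had 0 reads, and GRHL2 had none with Azeliragon and 7 in DMSO, all of them in DMSO a. KLF4, the member with the highest mean CPM, stood at 37.6 TPM with Azeliragon and 38.3 TPM in DMSO, with a log2 fold change of -0.07. The list median was -0.17.

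Genes known to be repressed by SNAIL or ZEB factors did not move in 1 direction. Of 24, 18 were tested, 1 rose, 3 fell and 14 did not pass, with a median log2 fold change of -0.06. Of all tested genes, 2.75% rose and 3.53% fell in the same fit. DSP, which encodes the desmosomal protein desmoplakin, rose to 16.4 ± 1.5 CPM with Azeliragon, against 10.7 ± 1.5 CPM in DMSO (SD, n = 3 each; log2 fold change 0.62; edgeR adjusted p = 0.00820). MUC1, an apical mucin, fell to 2.25 ± 0.62 CPM with Azeliragon, against 6.04 ± 0.68 CPM in DMSO (SD, n = 3 each; log2 fold change -1.43; edgeR adjusted p = 0.00113). CLDN4, a tight junction claudin, fell to 110 ± 4.8 CPM with Azeliragon, against 143 ± 7.1 CPM in DMSO (SD, n = 3 each; log2 fold change -0.37; edgeR adjusted p = 0.00507). The vitamin D receptor gene VDR fell to 8.85 ± 0.22 CPM with Azeliragon, against 11.9 ± 1.2 CPM in DMSO (SD, n = 3 each; log2 fold change -0.43; edgeR adjusted p = 0.0330). The VDR call was lost without any 1 of the Azeliragon libraries and without DMSO b (edgeR adjusted p 0.101 to 0.143), and with library totals as the only scaling it was 0.0506. The call of CLDN4 was lost without Azeliragon a (0.0570) and that of DSP without DMSO b or Azeliragon c (0.0587 and 0.0550). MUC1 was called in each of these fits, although a gene on its own strand overlaps it. The number of the 24 genes called was 7 without DMSO a and 2 without Azeliragon a, without Azeliragon c or without DMSO b. In these fits 23.7%, 2.68%, 2.70% and 2.86% of all tested genes were called. CDH1 had 1 read with Azeliragon and 0 in DMSO. ESR1, named after its values were seen, had 10, 9 and 14 reads with Azeliragon and 0, 0 and 5 reads in DMSO, and was too low to be tested. PEBP1, with the highest mean CPM of the list, had a log2 fold change of -0.08.

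The partners and regulators of the SNAIL protein were nearly all expressed. Few were called, as among all tested genes, of which 6.27% were called. Of 18 corepressors and chromatin partners all were expressed, 1 rose and none fell, with log2 fold changes from -0.15 to 0.33 and a median of 0.03. PRMT5, an arginine methyltransferase, rose to 93.1 ± 2.7 CPM with Azeliragon, against 78.4 ± 2.2 CPM in DMSO (SD, n = 3 each; log2 fold change 0.25; edgeR adjusted p = 0.0360). A gene on the opposite strand overlaps PRMT5, and likewise CTDSP1 in the next list. DNMT1, with the highest mean CPM of them, was not called, at a log2 fold change of 0.18 (edgeR adjusted p = 0.149). Without DMSO a it was 0.23 and passed (edgeR adjusted p = 0.000607). Of 21 genes for phosphorylation and turnover of SNAIL, 20 were tested, 1 fell and none rose, with log2 fold changes from -0.26 to 0.27 and a median of 0.09. CTDSP1, a phosphatase that stabilises SNAIL, fell to 88.3 ± 4.9 CPM with Azeliragon, against 106 ± 6.1 CPM in DMSO (SD, n = 3 each; log2 fold change -0.26; edgeR adjusted p = 0.0475). The calls of PRMT5 and CTDSP1 were lost when any single library other than DMSO a was left out (edgeR adjusted p up to 0.181 and 0.246). For CTDSP1 the call was lost, too, with RLE scaling (0.0571) and with the trends on GC content and length removed (0.0788). CSNK2A1, with the highest mean CPM of the turnover list but not the highest TPM, had a log2 fold change of 0.06, and PRKD1 had 0 reads. Without DMSO a 8 corepressors and 6 turnover genes passed, where 23.7% of all tested genes did. A further list of 8 antisense and neighbouring genes did not include SNAI3-AS1. Of these, 4 were tested, and none had an unadjusted p under 0.05, and ROCR and CASC15 had 0 reads.

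**Figure D5:**
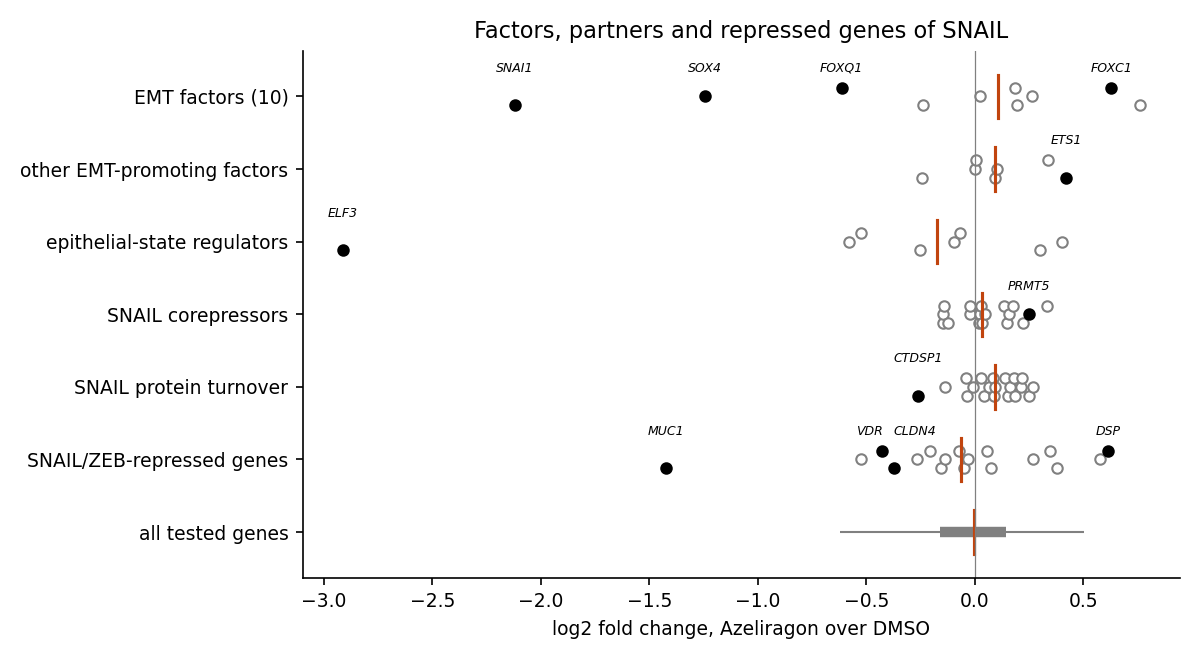
Log2 fold change, Azeliragon over DMSO, of each tested gene in 6 lists, filled and named where called, with a vertical bar at each list's median. The bottom row gives all tested genes (thick line, middle 50%; thin line, middle 90%). SNAI1, SOX4, ELF3 and MUC1 lie farthest below 0, while most partners of SNAIL lie within the range of all genes.

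The genes whose pattern was most like SNAI1 were sought among the 12853 tested genes averaging 1 CPM or more, by Pearson's r of log2 CPM over the 6 libraries. The highest 5 were EIF4A2 (r = 0.997), GINS3 (0.992), POU6F1 (0.992), NOX5 (0.991) and CCDC146 (0.990). All 6 points share the split between conditions, so these values describe these libraries alone. Among these 5 genes, CCDC146 was called (log2 fold change -0.68; edgeR adjusted p = 0.0401), and none fell as far as SNAI1.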

How the data were processed

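The authors deposited raw counts per gene for 6 libraries of polyadenylated RNA. Per the submitters' processing notes, the tools include STAR 2.6.1d, featureCounts 1.5.0-p3 and limma, and the build is GRCh38, with no roles stated. Strand setting, treatment of multi-mapping reads and annotation: not given in the sources used here. Overlapping genes may thus share reads. Of 58735 entries, 58722 carried a GENCODE 29 gene name, used for coordinates and lengths. The 2 entries named as dates (0% of counts) were left out.

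Genes were kept with filterByExpr, scaled by TMM and fitted with glmQLFit and glmQLFTest in edgeR 4.0.16 (R 4.3.3) with treatment as the only term. TPM used exon length over all isoforms without TMM. Library pairs within a condition differed by more than counting noise (chi-square per degree of freedom at least 4.60). Alternatives were RLE, library totals, no or a stricter filter (1 CPM in 3 libraries, mean count of 50), DESeq2 1.42.0, limma-voom 3.58.1, a replicate block, glmTreat, each library left out, and removal of trends on GC content and length (mgcv 1.9.3), alone and without DMSO a. The factors and lists were chosen with earlier results of these data known. All factors are named. So are the 5 genes most like SNAI1, with the called genes and the not called gene with the highest mean CPM of each other list. Genes named for having 0 or few reads, the expressed markers of other cell types and ESR1 were chosen after their values were seen. KDR is among these markers. Matplotlib 3.10.9 in Python 3.11.15 drew the figures.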

Additional observations from a re-analysis of the deposited data

How the results depend on the processing

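The number of factors called was 4 in the fit of all libraries and 4 with the replicate block. It was 2 by glmTreat against a 1.5-fold change (SNAI1 and SOX4), and 2 to 6 when single libraries were left out. The number of genes called over all genes, 1009, was 1685 with no filter on low counts, 59 by glmTreat, 3361 with the GC and length trend removed and DMSO a left out, and 445 to 3916 with each library left out. The log2 fold change of SNAI1 lay between -2.55 and -1.95 with each library left out. That of ZEB1 lay between -0.14 and 0.15, that of SNAI3 between -0.049 and 0.33 and that of RNF114 between -0.040 and 0.024. That of CSNK2A1 was -0.082 with the trend removed and -0.16 with DMSO a also left out, where it passed (adjusted p = 0.0341), as did FOSL1 (0.00955) and DNMT1 (0.0160). The cause was not tested. The number of expressed factors was 9 at 0.5 CPM, 7 at 5 CPM and 8 at 1 TPM (9 by the longest transcript, added after seeing the data). Replicate letters did not pair the libraries (r of 0.03, 0.02 and -0.04 for a, b and c), and the block left 908 genes called. With the block the adjusted p was 0.0525 for MIR34AHG, 0.0512 for VDR and 0.0643 for PRMT5. Of the 9 called genes named from the other lists, glmTreat called MUC1. Only 13 to 28 reads per library limit SNAI1 with Azeliragon, and 1 to 31 reads limit PRRX1.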
